A study of Mus musculus with 12 samples.

Results

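Cytosolic ribosomal protein genes encode the proteins that, together with ribosomal RNA, form the large and the small subunit of the ribosome outside mitochondria. The 79 genes described here are those present in the count tables of both cell lines whose symbol follows the Rpl and Rps naming pattern, together with the stalk genes Rplp0, Rplp1 and Rplp2 and with Rpsa. Pseudogenes and Rps27l were left out. They are 79 of 14360 genes listed in both tables, 48 of them for the large subunit and 31 for the small subunit. The rule used symbols and no measured value.

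RNA was sequenced from 2 mouse cell lines in a medium transfer experiment. The PSC4 line stands for pancreatic stellate cells, which lay down matrix around pancreatic tumours, and the KPC4 line for the cancer cells. For the first transfer, KPC4 donors received vehicle or 10 µM gemcitabine, a nucleoside analogue used in chemotherapy, over 6 h. After a wash the donors conditioned starvation medium over 14 h, and PSC4 recipients spent 24 h in this Control-SU or Gem-SU. For the second transfer, PSC4 given Control-SU or Gem-SU over 6 h were washed and conditioned fresh starvation medium over 18 h, and untreated KPC4 recipients spent 24 h in that Control-PSC-SU or Gem-PSC-SU. Each of the 4 groups had 3 biological replicates, so there were 12 libraries. Each cell type was represented by 1 line, and the recipients of all groups had been in conditioned starvation medium. Total counts lay between 26354328 and 38138356 per library, and no member had fewer than 510 counts in any library.

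Ribosomal proteins are needed in equal numbers, one copy per ribosome for most of them, while cells make far more ribosomal RNA and protein when they grow. Their messenger RNAs belong to the class that begins with a run of pyrimidines, the terminal oligopyrimidine or TOP motif, through which mTOR signalling and the protein Larp1 control their translation and stability. When assembly is disturbed, free Rpl5, Rpl11 and Rpl23 can bind Mdm2, the ubiquitin ligase that keeps p53 low.

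The sequences around the annotated transcription start were searched for a run of pyrimidines that covers the start. Such a run may include bases before the start, so it does not by itself show a TOP motif. Promoter windows of 300 bases (250 before the start and 50 from it) were taken from RefSeq on GRCm38.p6, which held 59 of the 79 genes. A run of at least 5 pyrimidines over an annotated start was present in 20 of 59 genes (33.9%), against 11.8% of 27025 genes with such a window. The 5 genes with the run whose transcripts were lowest relative to control in PSC4 are printed first, with the run in capitals. Rpl10, Rpl22l1 and Rpl7l1, which carried the lowest and the highest changes reported here, follow without capitals because no run over the start was found. In Rpl39 most of the run lies before the start, and in Rpl22l1 pyrimidines begin just after it, so capitals do not mark TOP status. Each line gives 40 bases before the start and 20 from it, 5′ to 3′ on the gene's strand.
Rpl38: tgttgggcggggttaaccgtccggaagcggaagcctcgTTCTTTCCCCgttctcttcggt
Rpl39: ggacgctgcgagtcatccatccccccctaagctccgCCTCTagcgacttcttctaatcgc
Rpl27a: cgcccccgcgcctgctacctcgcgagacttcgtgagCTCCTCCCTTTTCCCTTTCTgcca
Rpl35: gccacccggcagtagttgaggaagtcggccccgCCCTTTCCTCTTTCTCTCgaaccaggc
Rps27: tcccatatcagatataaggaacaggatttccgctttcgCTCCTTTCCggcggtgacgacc
Rpl10: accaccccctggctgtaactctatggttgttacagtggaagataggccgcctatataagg
Rpl22l1: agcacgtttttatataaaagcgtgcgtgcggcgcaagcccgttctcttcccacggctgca
Rpl7l1: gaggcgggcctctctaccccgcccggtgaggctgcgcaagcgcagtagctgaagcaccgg

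On GRCm38.p6 these windows were chr11:114668540-114668599 (+) for Rpl38, chrX:37085203-37085262 (-) for Rpl39, chr7:109519155-109519214 (+) for Rpl27a and chr2:39005112-39005171 (-) for Rpl35. They were chr3:90213629-90213688 (-) for Rps27, chrX:74270776-74270835 (+) for Rpl10, chr3:28805468-28805527 (+) for Rpl22l1 and chr17:46782637-46782696 (-) for Rpl7l1. In the 300-base windows, on both strands, the ETS motif CCGGAAG was found in 24 of 59 genes (40.7%, against 9.93% of all genes) and the YY1 motif AAGATGGC in 6 (10.2%, against 3.19%). The E-box CACGTG, the site of Myc and its partners, was found in 6 (10.2%, against 8.09%). The ETS motif ends in the letters with which the YY1 motif begins, so their matches can overlap, and a match describes the letters only. The change in PSC4 differed little with the run: the median log2 fold change was -0.94 in the 20 genes with it and -0.92 in the 39 without.

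In PSC4 exposed to Gem-SU, nearly the whole ribosomal protein set was lower than in PSC4 exposed to Control-SU. The members made up 4.48%, 4.14% and 3.50% of all gene counts in the control libraries and 3.07%, 2.00% and 1.82% in the Gem-SU libraries, with no overlap between the groups. Gem-SU replicate 1 lay closest to the controls. The mean share was 4.04% ± 0.498 with Control-SU and 2.30% ± 0.677 with Gem-SU (SD, n = 3 each). The large subunit genes went from 2.43% ± 0.297 to 1.38% ± 0.406, and the small subunit genes from 1.61% ± 0.206 to 0.916% ± 0.272 (SD, n = 3 each). In bulk RNA, fewer cells that express a gene and less of its RNA per cell cannot be told apart.

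**Figure D1:**
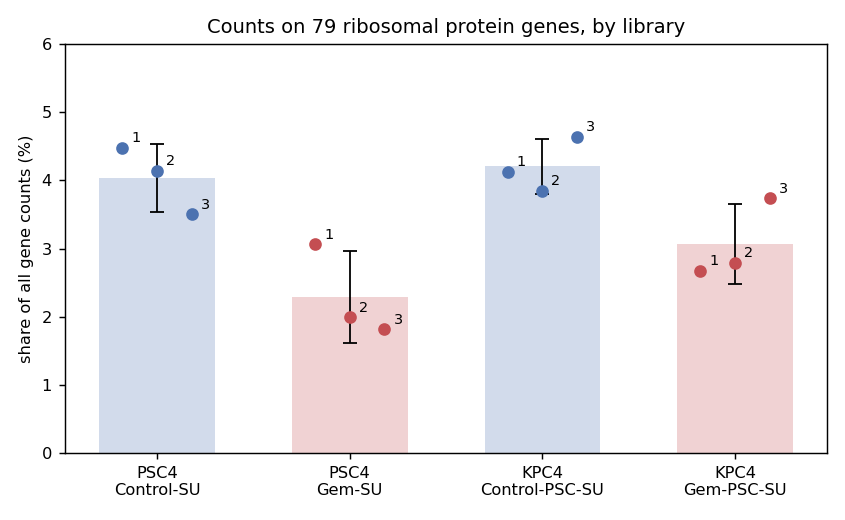
Share of all gene counts on the 79 genes (percent, y axis from 0) in each library, with points numbered by replicate, bars at the group mean and error bars of 1 SD (n = 3). Both Gem-SU and Gem-PSC-SU groups lay below their controls, without overlap, and PSC4 Gem-SU replicate 1 (3.07%) and KPC4 Gem-PSC-SU replicate 3 (3.74%) lay nearest to theirs.

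Gene by gene, 63 of the 79 members (79.7%) fell in PSC4 and 1 rose at an adjusted p under 0.05 (edgeR quasi-likelihood test, Benjamini-Hochberg over all genes tested), where 22.0% of all 13347 genes tested were called lower and 24.3% higher. The fall took in 37 of 48 large subunit genes and 26 of 31 small subunit genes. All members but Rpl7l1 had a log2 fold change below 0, against 50.1% of all genes tested. The median log2 fold change was -0.92 over the members, -0.96 in the large subunit and -0.88 in the small subunit, beside -0.00 over all genes tested, so the typical member was 1.89-fold lower. Changes of the middle members were close together, with quartiles at -1.06 and -0.70, while the whole range ran from -1.60 to 0.65.

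The call rested on single libraries more than the direction did. Without Gem-SU replicate 2, 12 members passed; without Gem-SU replicate 3, 33 did; and without Control-SU replicate 1, 37 did. The median over the members stayed between -1.20 and -0.75 in the fits that each left out 1 library. The share of all genes called in those fits is not given. The 3 Gem-SU libraries lay below all 3 controls for 58 members (73.4%, where 27.1% of all genes did so) and above them for 1 (29.3% of all genes), and the groups overlapped for 20. Gem-SU replicate 1 was below every control for 58 of 79 members, replicate 2 for 77 and replicate 3 for 78. The share of all genes is not given for single libraries, so these counts compare the libraries only. In the authors' deposited table, 69 of the 79 members were lower at an adjusted p under 0.05, where 20.5% of the genes with an adjusted p there were lower.

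**Figure D2:**
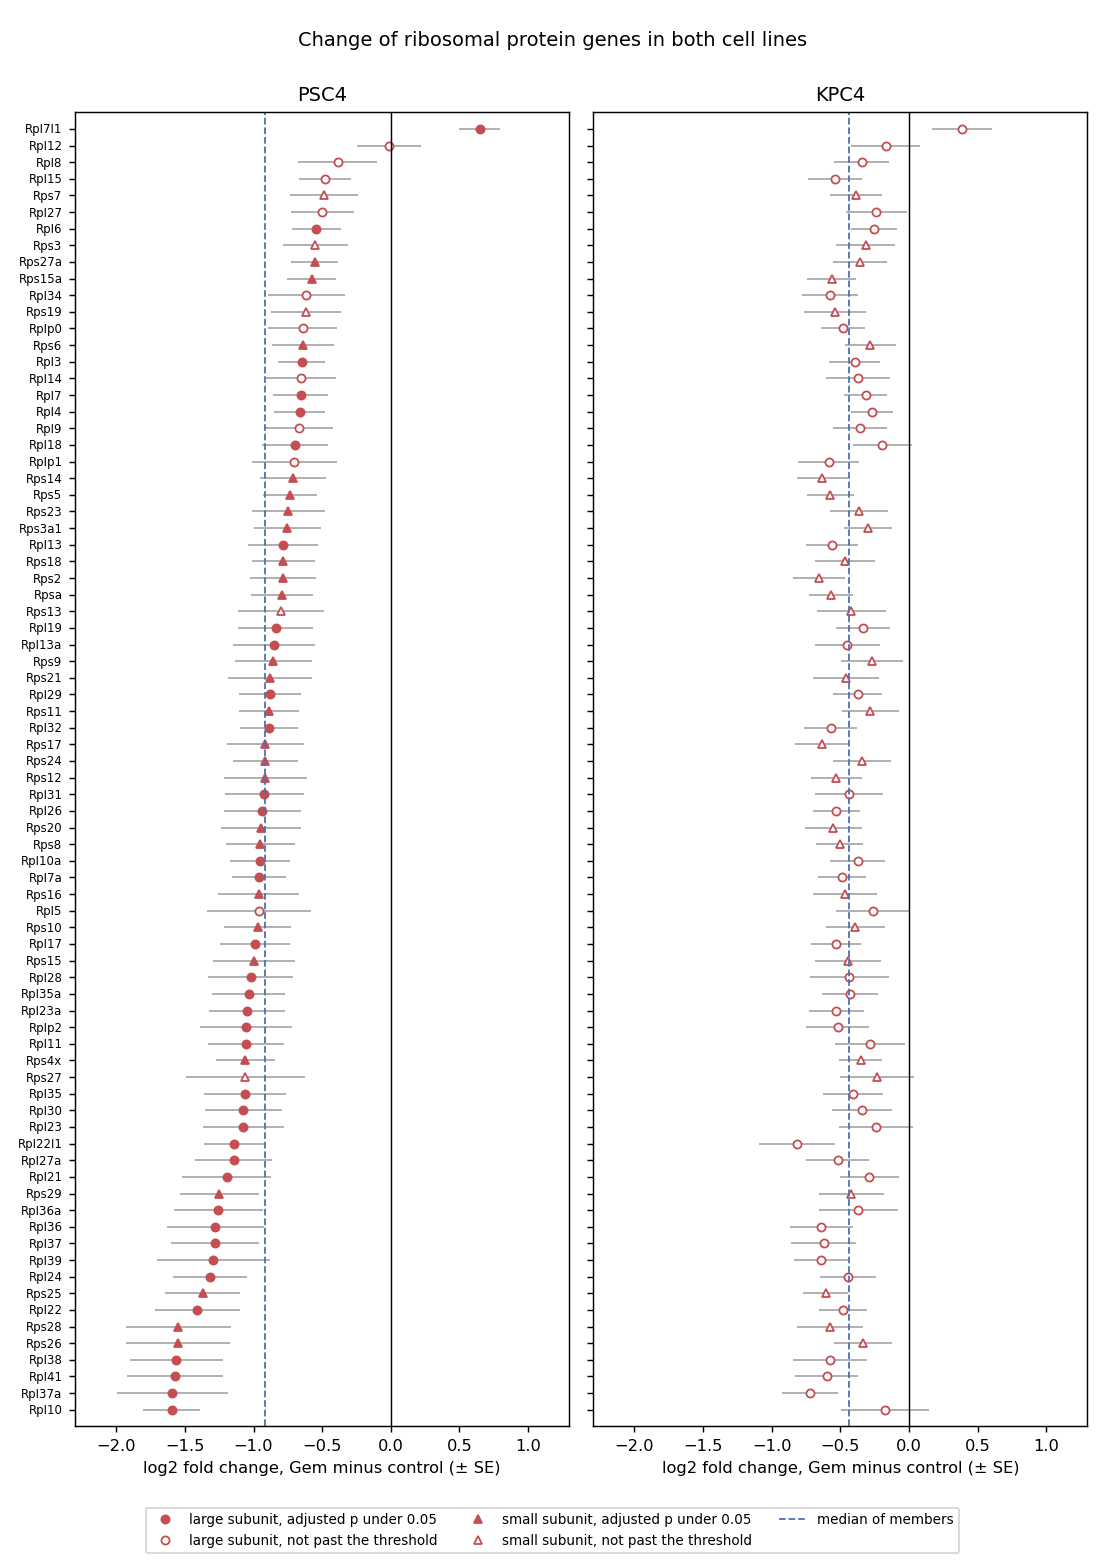
Log2 fold change of the genes (Gem minus control; 1 member is not drawn; x axis, with its standard error) in PSC4 on the left and KPC4 on the right, ordered by the PSC4 value, with circles for large and triangles for small subunit genes, filled where the adjusted p was under 0.05. In PSC4 most genes are filled below 0 and Rpl7l1 above it; in KPC4 no gene is filled and the dashed median of all members lies at -0.44.

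The genes lowest relative to control in PSC4 were Rpl10, Rpl37a, Rpl41, Rpl38 and Rps26, and Rps28 lay next to them. Rpl10 encodes a late-joining large subunit protein beside the peptidyl transferase centre. Its level was 215, 363 and 245 CPM (counts scaled by the adjusted library total) in the control libraries and 90.7, 86.4 and 95.1 CPM in the Gem-SU libraries. The Gem-SU values were close together and all below the lowest control (log2 fold change -1.60, standard error (SE) 0.21, edgeR adjusted p = 5.86e-04).

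Rpl37a, a zinc-binding large subunit protein, had 320, 358 and 211 CPM in controls against 170, 67.3 and 58.0 CPM with Gem-SU (log2 fold change -1.59, SE 0.40, adjusted p = 0.0123). Gem-SU replicate 1 was again the highest of its group and still below each control. Rpl41, the shortest ribosomal protein, had 714, 707 and 497 CPM in controls and 346, 162 and 137 CPM with Gem-SU (log2 fold change -1.57, SE 0.35, adjusted p = 0.00651). Rpl38, known for its part in the translation of Hox messages in the mouse embryo, had 147, 154 and 87.1 CPM in controls and 66.7, 36.4 and 28.3 CPM with Gem-SU (log2 fold change -1.56, SE 0.34, adjusted p = 0.00589). Neither gene's groups overlapped.

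Rps26 sits at the messenger RNA exit channel of the small subunit. It had 499, 952 and 355 CPM in controls and 288, 165 and 165 CPM with Gem-SU (log2 fold change -1.55, SE 0.38, adjusted p = 0.0104). Control replicate 2 was high for this gene, as it was for Rpl5, Rps27 and Rpl39. In that library the mitochondrial transcripts took 7.28% of counts, against 4.10% and 4.07% in the other controls. Over all members, 39 were highest in control replicate 1, 39 in replicate 2 and 1 in replicate 3.

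Among the genes that mark the set, Rpl3, a core large subunit protein, had 1366, 1398 and 1409 CPM in the controls. With Gem-SU it had 1007, 842 and 812 CPM, a log2 fold change of -0.65 (SE 0.17, adjusted p = 0.0144), and the groups did not overlap. Rps3, a protein of the messenger RNA entry site, had 819, 627 and 625 CPM in controls and 628, 430 and 357 CPM with Gem-SU. Its groups overlapped, since Gem-SU replicate 1 lay above both lower controls, and it did not pass (log2 fold change -0.55, SE 0.24, adjusted p = 0.0886).

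Rplp0, Rplp1 and Rplp2 form the acidic stalk that recruits elongation factors. Rplp0 had 3132, 2512 and 2646 CPM in controls and 2394, 1540 and 1381 CPM with Gem-SU. These groups did not overlap, but the change did not pass (log2 fold change -0.64, SE 0.25, adjusted p = 0.0637). Rplp1 had 779, 647 and 585 CPM against 629, 347 and 260 CPM, with Gem-SU replicate 1 inside the control range (log2 fold change -0.70, SE 0.31, adjusted p = 0.0936). Of the stalk genes Rplp2 passed, with 257, 151 and 179 CPM in controls and 146, 76.6 and 59.8 CPM with Gem-SU (log2 fold change -1.06, SE 0.34, adjusted p = 0.0311). Whether the stalk genes differ from each other in their change was not tested.

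Of Rpl5, Rpl11 and Rpl23, chosen for description as members known to bind Mdm2, Rpl11 and Rpl23 fell. Other members were not sorted by binding to Mdm2. Rpl11 had 418, 342 and 281 CPM in controls and 236, 151 and 113 CPM with Gem-SU, without overlap (log2 fold change -1.06, SE 0.28, adjusted p = 0.0142). Rpl23 had 779, 656 and 489 CPM against 437, 272 and 204 CPM, also without overlap (log2 fold change -1.08, SE 0.30, adjusted p = 0.0173). Rpl5 was uneven in the controls, at 88.9, 183 and 62.0 CPM, and had 72.3, 40.9 and 58.6 CPM with Gem-SU. Its groups overlapped and it did not pass (log2 fold change -0.96, SE 0.38, adjusted p = 0.0668). In the same libraries Mdm2 itself, a p53 target and the partner of these proteins, had 80.9, 92.2 and 63.5 CPM in controls and 3095, 4431 and 3146 CPM with Gem-SU (log2 fold change 5.50, SE 0.28, adjusted p = 1.93e-05).

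Rpsa, the small subunit protein also known as a laminin receptor, had 1236, 1555 and 1253 CPM in controls and 1010, 636 and 685 CPM with Gem-SU (log2 fold change -0.79, SE 0.23, adjusted p = 0.0197). Rps4x, a core small subunit protein, had 1478, 1302 and 1107 CPM against 781, 534 and 550 CPM (log2 fold change -1.06, SE 0.21, adjusted p = 0.00438). In both genes the groups lay apart.

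The 15 members that did not pass in PSC4 were Rpl5, Rpl8, Rpl9, Rpl12, Rpl14, Rpl15, Rpl27, Rpl34, Rplp0, Rplp1, Rps3, Rps7, Rps13, Rps19 and Rps27. All of these values were below 0. The smallest changes among them, apart from Rpl12, belonged to Rpl8, Rpl15 and Rps7. Rpl8, a core large subunit protein, had 903, 516 and 675 CPM in controls and 730, 491 and 379 CPM with Gem-SU, with overlapping groups (log2 fold change -0.39, SE 0.29, adjusted p = 0.297). Rpl15, a large subunit protein, had 400, 365 and 339 CPM against 332, 222 and 237 CPM, without overlap (log2 fold change -0.48, SE 0.19, adjusted p = 0.0658). Rps7, a small subunit protein, had 752, 924 and 594 CPM against 721, 440 and 458 CPM, with overlap (log2 fold change -0.49, SE 0.25, adjusted p = 0.142).

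Rpl7l1 was the member that rose. It is a paralogue of Rpl7, related to a yeast protein that works in large subunit assembly rather than in the finished ribosome. It had 76.7, 56.6 and 67.1 CPM in control PSC4 and 105, 106 and 103 CPM with Gem-SU. The Gem-SU libraries were nearly equal and all above the controls (log2 fold change 0.65, SE 0.15, adjusted p = 0.00750). The call held in all 18 alternative fits of PSC4, with adjusted p between 7.11e-04 and 0.0415.

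Rpl12, a large subunit protein at the base of the stalk, was the other member that stayed out of the shift in PSC4. It had 30.4, 24.0 and 24.1 CPM in controls and 32.3, 27.7 and 17.8 CPM with Gem-SU, a log2 fold change of -0.01 (SE 0.24, adjusted p = 0.966), and the groups overlapped. The sign turned to 0.01 with libraries scaled by their plain totals, to 0.06 with offsets for transcript length, to 0.11 without Control-SU replicate 1, and to 0.20 without Gem-SU replicate 3. In the authors' deposited table its log2 fold change was 0.29.

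To ask which members departed from the shift of the set, libraries were scaled so that the ribosomal protein genes themselves were on average level. On that scale 2 members passed in PSC4, both higher and 0 lower. The same scale called 52.7% of all genes higher and 2.67% lower. Rpl7l1 was 1.61 above the set on the log2 scale (SE 0.35, adjusted p = 2.55e-04) and Rpl12 was 0.89 above it (SE 0.32, adjusted p = 0.0170). Leaving out Control-SU replicate 1, Control-SU replicate 2 or Gem-SU replicate 2 left Rpl7l1 alone past the threshold, and leaving out Gem-SU replicate 1 gave 8 members, 3 higher and 5 lower. The lowest value relative to the set was that of Rpl37a, at -0.77 (adjusted p = 0.0584), and Rpl10 was at -0.62 (adjusted p = 0.134).

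**Figure D3:**
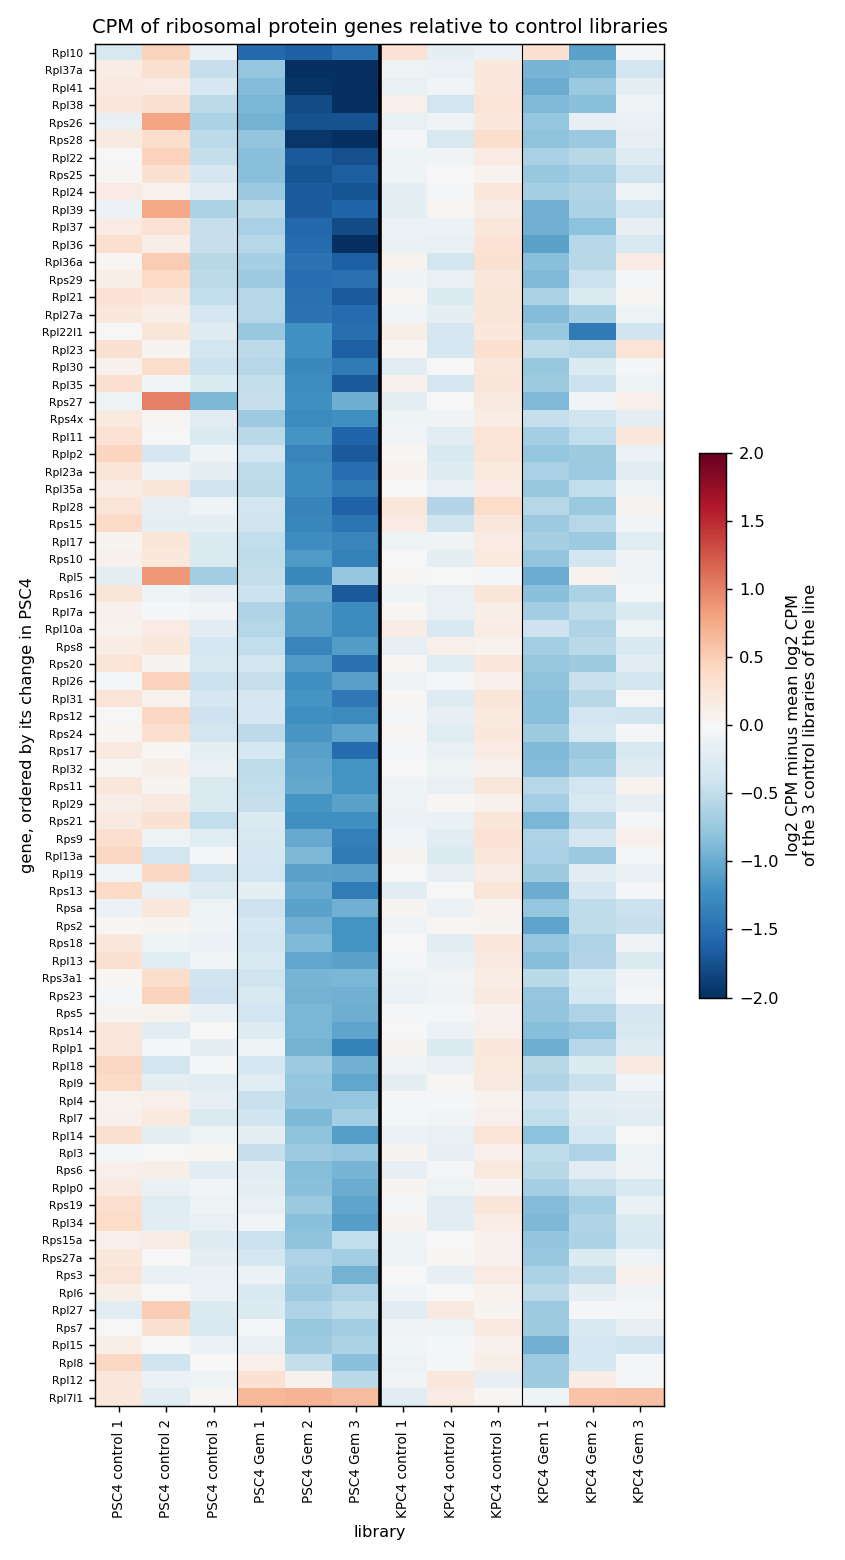
Heat map of log2 CPM of the genes (rows, ordered by the PSC4 change; 1 member is not drawn) in each of the 12 libraries (columns), relative to the mean of the 3 control libraries of the same line; blue is lower, red higher, and the colour scale stops at 2 in either direction. PSC4 Gem-SU replicates 2 and 3 are the darkest columns, KPC4 Gem-PSC-SU replicate 3 is nearly as pale as its controls, and Rpl7l1 at the bottom is red in Gem-SU PSC4.

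In KPC4 exposed to Gem-PSC-SU the set was also lower than in its controls, and no single gene passed. The members made up 4.13%, 3.85% and 4.64% of counts in the control libraries and 2.68%, 2.80% and 3.74% with Gem-PSC-SU, again without overlap. Their mean share was 4.21% ± 0.402 in controls and 3.07% ± 0.581 with Gem-PSC-SU (SD, n = 3 each). The median log2 fold change was -0.44 in the members and also -0.44 in each subunit, beside -0.02 over all 13236 genes tested, so the typical member was 1.35-fold lower. Again 78 of 79 members were below 0, with Rpl7l1 as the exception, where 51.9% of all genes were below 0.

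At an adjusted p under 0.05, 0 of 79 members passed in edgeR's quasi-likelihood test, as did 0 (0%) of all genes tested. The smallest adjusted p of a member was 0.152. At an unadjusted p under 0.05, 29 members (36.7%) were lower and 0 higher, where 6.07% of all genes were lower and 10.9% higher. DESeq2 called 2 members, and the share of all genes it called is not given. The KPC4 libraries of 1 replicate number deviated together, and with that number as a block 24 members fell (30.4%), 13 of the large and 11 of the small subunit, where 2.78% of all genes were called lower. Rpl37a and Rps25 were the members lower in the authors' deposited table at an adjusted p under 0.05, 2 of 79, where 0.682% of its genes were.

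The Gem-PSC-SU libraries lay below all controls for 30 members (38.0%, where 10.9% of all genes did so). Replicate 3 limited this number: it was below every control for 31 members, replicate 1 for 76 and replicate 2 for 74. As in PSC4, the share of all genes is not given for single libraries. Of these 30 members 26 also lay apart in PSC4, which is 86.7% of them, beside 73.4% of all members, and 44.8% of the 58 PSC4 members. The median change of the members relative to controls was -0.76 in replicate 1, -0.51 in replicate 2 and -0.10 in replicate 3.

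The lowest KPC4 changes were those of Rpl22l1, Rpl37a, Rps2, Rpl39 and Rpl36. All of them passed with the block and none in edgeR's quasi-likelihood test without it. Rpl22l1 had 70.6, 51.6 and 74.6 CPM in controls and 38.4, 24.2 and 49.3 CPM with Gem-PSC-SU (log2 fold change -0.82, SE 0.28, adjusted p = 0.211, with the block 0.0183). Its groups did not overlap. Rpl37a had 236, 234 and 293 CPM against 132, 136 and 195 CPM (log2 fold change -0.72, SE 0.20, adjusted p = 0.162, with the block 0.0153).

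Rps2, a small subunit protein near the entry of the messenger RNA, had 1994, 2137 and 2179 CPM in controls and 1008, 1474 and 1530 CPM with Gem-PSC-SU (log2 fold change -0.65, SE 0.19, adjusted p = 0.166, with the block 0.0264). Rpl39, a very short protein of the exit tunnel, had 256, 300 and 321 CPM against 149, 188 and 226 CPM (log2 fold change -0.64, SE 0.20, adjusted p = 0.175, with the block 0.0225). Rpl36, a large subunit protein, had 91.2, 89.9 and 122 CPM against 47.7, 67.1 and 80.0 CPM (log2 fold change -0.64, SE 0.23, adjusted p = 0.227, with the block 0.0368). In these genes too each Gem-PSC-SU value was below every control.

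Rpsa passed with the block as well: it had 2176, 1938 and 2192 CPM in controls and 1223, 1481 and 1556 CPM with Gem-PSC-SU (log2 fold change -0.57, SE 0.16, adjusted p = 0.162, with the block 0.0377). The genes that mark the set did not pass either way. Rpl3 had 1392, 1198 and 1436 CPM against 937, 874 and 1249 CPM (log2 fold change -0.40, SE 0.18), with replicate 3 inside the control range. Rplp0 had 3252, 2940 and 3247 CPM against 1962, 2267 and 2532 CPM, without overlap (log2 fold change -0.48, SE 0.16, adjusted p = 0.202, with the block 0.0521). Rps3 had 924, 826 and 1034 CPM against 598, 663 and 976 CPM (log2 fold change -0.32, SE 0.21), with overlap. For Rpl5, Rpl11 and Rpl23 the log2 fold changes were -0.26, -0.28 and -0.24, and in each the groups overlapped.

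At the other end of the KPC4 order, Rpl7l1 had 95.6, 123 and 113 CPM in controls and 104, 164 and 166 CPM with Gem-PSC-SU. Its groups overlapped through replicate 1 (log2 fold change 0.39, SE 0.22, adjusted p = 0.397). Relative to the set it was 0.80 higher on the log2 scale (adjusted p = 0.0878, with the block 0.00571), where 7.80% of all genes passed higher on this scale without it. Of the members nearest to 0, Rpl12 had 28.8, 34.7 and 26.7 CPM against 18.2, 33.0 and 29.0 CPM (log2 fold change -0.17, SE 0.25). Rpl10 had 217, 157 and 163 CPM against 218, 84.0 and 174 CPM (log2 fold change -0.17, SE 0.32), so that Gem-PSC-SU replicate 2 was low and the others lay at control levels. Rpl18 and Rps27 had log2 fold changes of -0.19 and -0.23.

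Of 7 pairs of a ribosomal protein gene and its paralogue, 3 were counted well enough in both lines to be compared within a library. Such a ratio needs no scaling between libraries. Rpl3l, Rpl10l and Rps4l were in neither table analysed here, and Rpl39l reached at most 10 counts in PSC4. With 3 libraries against 3 the exact permutation test cannot go below 0.1.

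Rpl7l1 had 11.6, 7.97 and 13.2 counts per 100 of Rpl7 in control PSC4 and 22.3, 31.7 and 26.6 with Gem-SU. The log2 ratio differed by 1.31 without overlap (two-sided exact permutation test, p = 0.1, adjusted over 6 tests p = 0.2). In KPC4 the ratio was 13.1, 17.0 and 14.1 in controls and 19.5, 26.2 and 25.6 with Gem-PSC-SU, a log2 difference of 0.68 without overlap (exact p = 0.1, adjusted 0.2). Rpl7 itself had 661, 711 and 508 CPM in control PSC4 and 469, 334 and 389 CPM with Gem-SU (log2 fold change -0.66, SE 0.20, adjusted p = 0.0252), so both partners of the pair moved in PSC4, in opposite directions.

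Rpl22 and Rpl22l1, which can take the same place in the large subunit and are known to influence each other's level, both fell in PSC4. Rpl22 had 289, 398 and 208 CPM in controls and 161, 90.1 and 85.7 CPM with Gem-SU (log2 fold change -1.41, SE 0.31, adjusted p = 0.00626). Rpl22l1 had 86.3, 101 and 71.5 CPM against 50.5, 36.7 and 30.0 CPM (log2 fold change -1.14, SE 0.22, adjusted p = 0.00345). Counts of Rpl22l1 per 100 of Rpl22 were 29.8, 25.3 and 34.4 in control PSC4 and 31.4, 40.8 and 35.0 with Gem-SU, a log2 difference of 0.26 (exact permutation test, p = 0.2). In KPC4 they were 36.6, 25.9 and 31.9 against 28.9, 17.1 and 28.2, a difference of -0.37 (exact permutation test, p = 0.3). The groups of this ratio overlapped in both lines.

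Rps27l is a p53 target and a paralogue of Rps27, and was not counted as a member. It had 94.4, 103 and 64.9 CPM in control PSC4 and 148, 105 and 82.3 CPM with Gem-SU (log2 fold change 0.36, SE 0.25, adjusted p = 0.265). Rps27, a small subunit protein, had 33.7, 72.8 and 19.5 CPM against 26.3, 15.6 and 18.5 CPM (log2 fold change -1.06, SE 0.43, adjusted p = 0.0745). Counts of Rps27l per 100 of Rps27 thus ran at 280.5, 141 and 333 in controls and 563, 676 and 446 with Gem-SU, a log2 difference of 1.23 without overlap (exact permutation test, p = 0.1, adjusted 0.2). In KPC4 they were 104, 163 and 127 against 124, 138 and 129, a difference of 0.01 (exact p = 0.9).

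The change of each member was then compared between the lines in 1 fit of all 12 libraries. Since the lines received different media, cell line and step of transfer cannot be told apart. The difference (PSC4 change minus KPC4 change) was below 0 for 76 of 79 members, with a median of -0.52 on the log2 scale beside -0.09 over all 13632 genes tested. It passed for 1 member, where 9.85% of all genes passed. That member was Rpl10, with a difference of -1.48 (SE 0.42, edgeR adjusted p = 0.0443). Leaving out single libraries ended the call in 10 of 12 cases, with adjusted p from 0.00345 to 0.110 over all alternatives. The call stayed without Control-SU replicate 1 of PSC4 and without Gem-PSC-SU replicate 2 of KPC4. The number of members past the threshold was 21 with the replicate number within each line as a block, and 11 without PSC4 Gem-SU replicate 1. The share of all genes that passed in these fits is not given, so these counts are no result about the members. In PSC4 the Gem-SU library of the same number was the best match of Control-SU replicate 1 (correlation of deviations 0.428). It was not the best match of replicates 2 and 3 (-0.0548 and 0.102).

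The next largest differences were -1.26 for Rps26 (SE 0.46, adjusted p = 0.102) and -1.04 for Rpl38 (SE 0.47, adjusted p = 0.182). Differences above 0 were those of Rpl7l1 at 0.21, Rpl12 at 0.11 and Rpl15 at 0.01, each smaller than its standard error, and the signs of Rpl12 and Rpl15 turned when some single libraries were left out. Across the 79 members, which share their libraries, the PSC4 and KPC4 changes had a Spearman rho of 0.257.

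In the control libraries of both lines the set stood at a like level, with a median difference (PSC4 minus KPC4) of 0.01 on the log2 scale. The controls of each line were in a different conditioned medium, so cell line and medium cannot be told apart in these levels. The level differed for 6 of 79 members, where 42.9% of all genes differed. On the scale of all 12 libraries, Rpl36a had 256 CPM ± 88.9 in control PSC4 and 111 CPM ± 24.6 in control KPC4 (SD, n = 3 each; log2 difference 1.20, edgeR adjusted p = 0.0100). Rpl5 had 112 CPM ± 63.3 and 51.5 CPM ± 1.43 (log2 difference 1.12, adjusted p = 0.0206). Without PSC4 Control-SU replicate 2, which was high for both, neither passed (log2 differences 0.86 and 0.51). Rpl5 also missed the threshold without any 1 of the 3 KPC4 controls. Without PSC4 Gem-SU replicate 1 the number of members that differed was 10. The share of all genes that differed in that fit is not given.

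Lower in PSC4 with Control-SU than in KPC4 with Control-PSC-SU were Rpl29, Rpl7l1, Rpl7a and Rpsa. Rpl29, a large subunit protein, had 281 CPM ± 45.5 in PSC4 and 510 CPM ± 33.0 in KPC4 (SD, n = 3 each; log2 difference -0.86, adjusted p = 0.00495). Rpl7l1 had 67.6 CPM ± 10.5 and 113 CPM ± 14.7 (log2 difference -0.74, adjusted p = 0.00693). Rpl7a and Rpsa differed by -0.67 and -0.65, with adjusted p of 0.0116 and 0.0156, and the difference of Rpsa did not pass without PSC4 Control-SU replicate 1 or KPC4 Control-PSC-SU replicate 3.

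Although most of the proteins are needed in near-equal numbers, the transcripts differed widely in level. Per kilobase of transcript, mean CPM in control PSC4 ran from 21.1 for Rpl12, 51.0 for Rpl7l1, 77.4 for Rpl5 and 105 for Rps27 to 3236 for Rplp0. Levels per length rest on annotated transcripts and on the division of counts among near-identical copies, since many members have processed pseudogenes. Named pseudogene and retrocopy rows took 0.199% ± 0.0501 of counts in control PSC4 and 0.0895% ± 0.0255 with Gem-SU (SD, n = 3 each). With their counts added to those of the parent genes, 65 members were called lower and 1 higher in PSC4, and the median log2 fold change was -0.91. The share of all genes called in that fit is not given.

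Genes that use ribosomes moved with the set in PSC4, and genes that build them moved the other way. Of 18 TOP genes outside the naming rule, among them translation factors and the ubiquitin-like fusion gene Fau, 12 fell and 0 rose, with a median log2 fold change of -0.64 and all 18 below 0, where 22.0% of all genes tested fell, 24.3% rose and 50.1% were below 0. Eif4b, an initiation factor, went from 1132 CPM ± 60.0 to 449 CPM ± 11.0 (SD, n = 3 each; log2 fold change -1.33, adjusted p = 3.56e-04). The elongation factors Eef2 and Eef1a1 fell by 0.93 and 0.98 on the log2 scale. Without Gem-SU replicate 2 the number of these TOP genes past the threshold was 4, and without Gem-SU replicate 3 it was 7. The share of all genes called in these fits is not given.

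Of 22 small subunit assembly factors 19 rose and 0 fell, where 24.3% of all genes rose, with a median log2 fold change of 1.15. Nop56 and Nop58, proteins of the particles that methylate ribosomal RNA, rose by 2.14 and 1.62, and Rrp12, which escorts pre-ribosomes out of the nucleus, rose by 2.61. Of 31 large subunit assembly factors 23 rose and 0 fell, again beside 24.3% of all genes that rose, with a median of 0.78. Among them Mak16, a component of early large subunit precursors, had 44.2, 47.3 and 41.3 CPM in controls and 152, 193 and 187 CPM with Gem-SU (log2 fold change 2.00). Nop2, a ribosomal RNA methyltransferase, and Nmd3, an export adaptor, rose by 1.70 and 1.54.

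RNA polymerase I makes the large ribosomal RNA precursor. Of 15 genes for its subunits and factors 8 rose and 1 fell in PSC4 (24.3% and 22.0% of all genes), with a median of 0.74, led by Taf1d (2.26), Polr1e (2.08) and Rrn3 (1.64), and Znrd1 was the gene that fell (log2 fold change -0.75, adjusted p = 0.0276). Of 14 regulators of ribosomal protein synthesis tested, 4 rose and 0 fell, 28.6%, which is near the 24.3% of all genes that rose and is no result about the regulators. Myc, a transcription factor that raises ribosome production, had 56.8, 47.5 and 50.4 CPM in controls and 182, 149 and 184 CPM with Gem-SU (log2 fold change 1.73, SE 0.15, adjusted p = 1.03e-04). Its antagonist Mxd1 rose by 1.97, and Rheb, the GTPase that activates mTOR, by 0.43. The number of regulators that passed was 2 without Control-SU replicate 2, Control-SU replicate 3 or Gem-SU replicate 2, and 7 without Gem-SU replicate 1. For these fits too the share of all genes called is not given. Members of these lists were chosen with earlier results of these libraries known.

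In KPC4 none of the genes in these lists passed (0 higher and 0 lower in each). The medians were -0.35 for the TOP genes, 0.15 and 0.14 for small and large subunit assembly factors, 0.01 for RNA polymerase I and 0.26 for the regulators. With the replicate block 2 TOP genes were lower, 2 regulators higher, 1 RNA polymerase I gene higher and 1 large subunit assembly gene higher, where the block called 6.07% of all genes higher and 2.78% lower. Myc had 105, 127 and 142 CPM in controls and 138, 351 and 179 CPM with Gem-PSC-SU, with overlapping groups.

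**Figure D4:**
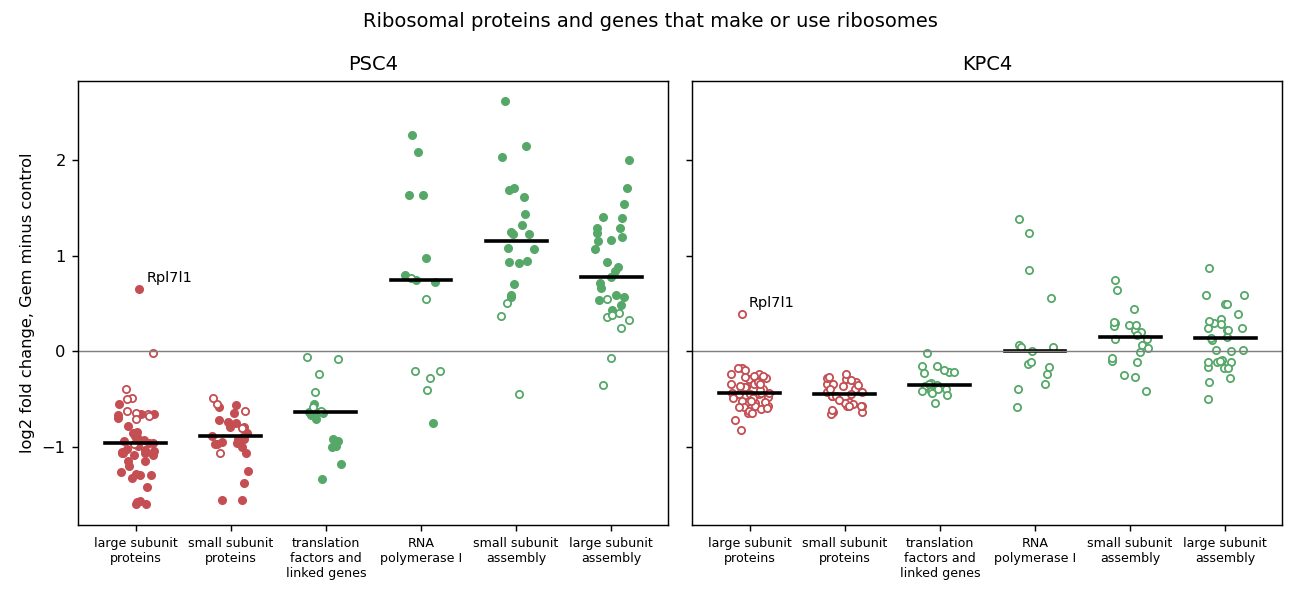
Log2 fold change (Gem minus control, y axis) of each gene of the ribosomal protein set (red) and of the lists for translation, RNA polymerase I and subunit assembly (green), in PSC4 and KPC4; filled points had an adjusted p under 0.05 and black lines are list medians. In PSC4 both subunits (medians -0.96 and -0.88) lie opposite to the assembly factors (1.15 and 0.78), and Rpl7l1 lies among the latter; in KPC4 all points are open.

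Other measures moved with these results and are given beside them. Mitochondrial transcripts took 5.15% ± 1.84 of counts in control PSC4 and 2.81% ± 0.681 with Gem-SU, and 3.21% ± 0.801 and 2.70% ± 0.305 in the KPC4 groups (SD, n = 3 each). Their part in the result was not tested. The summed level of 11 stellate and fibroblast markers, 10 of them above 1 CPM, lay between 8138 and 8703 CPM in control PSC4 and between 2456 and 3670 CPM with Gem-SU, and its part was not tested. Of the 10 tested in PSC4, 8 fell, where 22.0% of all genes did. Acta2 and Des had log2 fold changes of 0.78 and 0.25 there without passing. In KPC4, where 3 of these markers were above 1 CPM, the sums lay between 2417 and 2806 CPM in controls and between 1848 and 2208 CPM with Gem-PSC-SU. Nearly all of the KPC4 sum was Vim, with 2601, 2391 and 2773 CPM in controls and 2176, 1831 and 2154 CPM with Gem-PSC-SU. Markers of epithelial tumour cells summed to 168 to 231 CPM in control PSC4 and 179 to 238 CPM with Gem-SU, against 6220 to 7734 CPM in KPC4. Nearly all of the PSC4 sum was Msln, with 216, 162 and 227 CPM in controls and 223, 179 and 169 CPM with Gem-SU. Of the keratins, Krt19 rose from 2.55, 3.88 and 2.41 CPM to 9.07, 6.58 and 7.28 CPM (log2 fold change 1.38, SE 0.28, adjusted p = 0.00441), and Krt7 had 2.73, 1.01 and 0.780 CPM against 4.96, 3.12 and 1.69 CPM without passing. Endothelial markers summed to 0.610 to 1.43 CPM in control PSC4 and 2.71 to 4.84 CPM with Gem-SU, and Kdr among them rose (log2 fold change 2.58, adjusted p = 0.00339). Of the acinar and islet markers Cela1 alone was listed in PSC4, and it fell from 7.96 to 15.8 CPM in controls to 1.42 to 2.99 CPM with Gem-SU (log2 fold change -2.37, adjusted p = 0.00110). Leukocyte markers summed to 3.66 to 5.39 CPM in control PSC4 and to at most 5.62 CPM with Gem-SU, with overlap. In KPC4 the Gem-PSC-SU and control ranges of the endothelial sum and of Cela1 overlapped. Leukocyte markers there summed to 0.474 to 1.327 CPM in controls and 1.331 to 2.075 CPM with Gem-PSC-SU, just without overlap. Of these leukocyte markers 0 were above 1 CPM on average in KPC4. The part of these markers in the results was not tested.

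Transcript length was related to the change as well. Member transcripts had a median annotated length of 712 bases, and across them the log2 fold change and length had a Spearman rho of 0.336 in PSC4 and 0.293 in KPC4, against 0.106 and 0.0633 across other genes. Of transcripts between 500 and 750 bases, the 32 members had a median log2 fold change of -0.96 in PSC4 and the 957 other genes one of -0.23. In KPC4 these medians were -0.44 and -0.11. With offsets that take out the trend with length, 62 members were called lower and 1 higher in PSC4, with a median of -0.72, and the KPC4 median was -0.33. The share of all genes called with these offsets is not given.

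**Figure D5:**
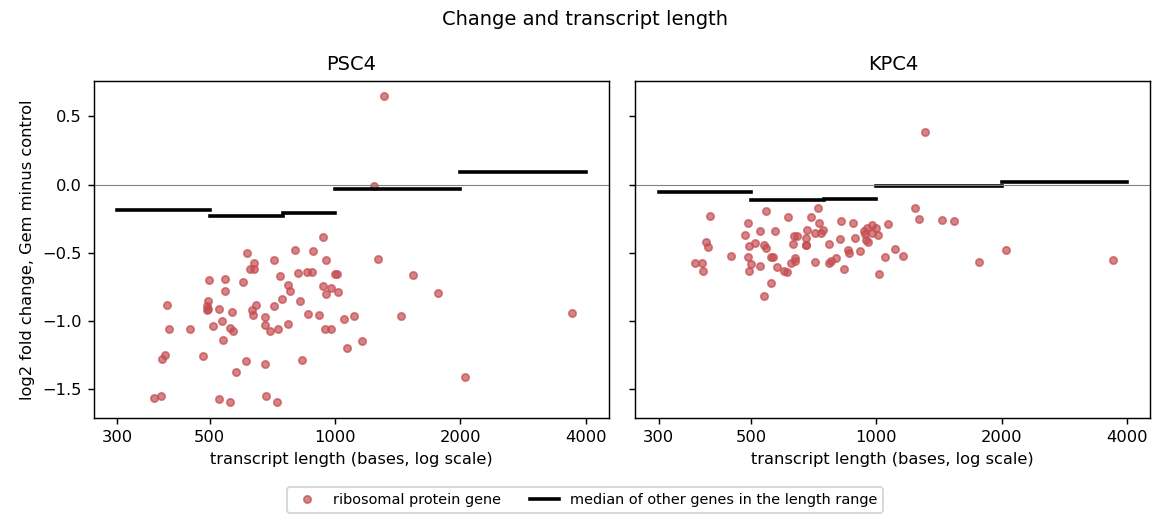
Log2 fold change of each ribosomal protein gene (red points) against the median length of its annotated protein-coding transcripts (bases, log scale), in PSC4 and KPC4, with black lines at the median of other genes in each length range. In PSC4 the members between 500 and 750 bases have a median of -0.96, against -0.23 for other genes of that length.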

How the data were processed

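Total RNA of 12 cultures was sequenced (NovaSeq X Plus; per the labels' protocols). The authors deposited 1 table of whole-number counts per gene for each line. They were treated as estimated counts rounded to whole numbers, because Salmon is the quantifier named in the submitters' processing notes, which also list Trim Galore 0.6.10, cutadapt 5.2, R 4.5.1, DESeq2 and GRCm39 without their roles. The authors also deposited, per line, log2 fold changes and p-values with adjusted p-values, used only as their values.

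GENCODE M21 symbols matched 99.7% of gene identifiers in each table. It and the RefSeq promoters are of GRCm38, so no gene coordinates are given beside the promoter windows. Each line was fitted by itself in R 4.3.3 with edgeR 4.0.16 (filterByExpr, TMM, robust quasi-likelihood, Benjamini-Hochberg over all genes, threshold 0.05). SE is the log2 fold change divided by the root of the F statistic. CPM uses totals adjusted by TMM factors, within a line, or over all 12 libraries for control levels. Departures from the set used TMM factors from the members alone. Paralogue ratios used a pseudocount of 0.5 and a two-sided exact permutation test. Scripts were tested on simulated data.

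Same-numbered KPC4 libraries deviated together (correlations 0.351, 0.436 and 0.211), so their block value is given where it changes a call. This rests on the values alone. Replicates are described as biological replicates with no statement of separate passages or days. Members, lists and tests were chosen with earlier results of these data known. Named were the marker genes, Rpl5, Rpl11 and Rpl23 as members known to bind Mdm2, stalk genes, Rpsa and paralogues. Also named were the 5 highest and 5 lowest changes per line (mean of at least 50 counts) and the 3 highest and lowest interactions. So were the 3 largest level differences in each direction and the 3 genes of smallest p in each list with a call. Other genes were named after their values were seen. Values of 1 member and 1 listed gene are not reported here one by one. Alternatives were DESeq2's size factors, upper quartile scaling, plain totals, other filters, DESeq2 1.42.0, the replicate block, 1 fit over all libraries, robust estimation off and leaving out each library. Length and GC offsets (loess span 0.5), summing with pseudogene rows and the mitochondrial ribosomal protein list were chosen after seeing the data. For alternative fits, the share of all genes called is given with the KPC4 replicate block only.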

Additional observations from a re-analysis of the deposited data

Results flagged for a closer look

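The change of Rpl10 differed between the lines by a test of that difference, the interaction over all 12 libraries, at -1.48 on the log2 scale (PSC4 minus KPC4, SE 0.42, edgeR adjusted p = 0.0443). It was the 1 member of 79 that passed, where 9.85% of all genes did. Leaving out single libraries ended the call in 10 of 12 cases, and upper quartile scaling ended it too. Cell line and step of transfer cannot be told apart. All 3 Gem-SU libraries of PSC4 were below the controls, while in KPC4 Gem-PSC-SU replicate 2 was low and the other two were at control levels.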

How the results depend on the processing

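Leaving out 1 library at a time gave 12 to 75 members past the threshold in PSC4, 1 to 8 off the set in PSC4, 0 to 11 in the interaction and 4 to 10 in control levels. Among these alternative fits, the share of all genes called is given for the KPC4 replicate block alone (2.78% lower). The other counts in this section describe the fits and are no result about the members. The replicate block gave 24 members in KPC4 (13 with length and GC offsets as well), 7 off the set in PSC4, 1 off the set in KPC4 and 21 in the interaction. In PSC4 the library of the same number was the best match for Control-SU replicate 1 only (correlations 0.428, -0.0548 and 0.102). The block gave 73 members there. DESeq2 gave 2 in KPC4, 2 in the interaction and 11 in control levels, and upper quartile scaling gave 0 in the interaction. Upper quartile scaling also moved the median of all genes in PSC4 to -0.13 and that of the members to -1.05. The cause was not tested.

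Signs turned for values near 0. The Rpl12 change in PSC4 was 0.012 with plain totals, 0.059 with length offsets and 0.058 with length and GC offsets, and -0.20 to 0.20 (0.11 without Control-SU replicate 1) with 1 library left out. With 1 library left out, KPC4 changes ran from -0.35 to 0.042 for Rpl12, from -0.42 to 0.012 for Rps27 and from -0.47 to 0.13 for Rpl10, and Rpl10 relative to the set from -0.23 to 0.61. The interaction of Rpl12 ran up to 0.30 and turned to -0.09, -0.01 and -0.12, and that of Rpl15 turned to -0.03, -0.20, -0.03 and -0.17. The Rps27l to Rps27 ratio in KPC4 ran from -0.14 to 0.18, with -0.00098 and -0.029 between them. A tally covered values of single genes, subunit medians and list counts. It left out the counts of members, the medians over all members, the shares and the paralogue ratios. In it 1544 values were unchanged, 56 newly passed, 55 no longer passed, 34 moved and 16 turned in sign. Unchanged meant the same direction and side of the threshold for a gene, and closeness to the main value for a list count or subunit median.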

Other observations

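Mitochondrial ribosomal protein genes, a list chosen after the data were seen, build the separate ribosome that translates mitochondrial messages. Of 79 such genes 13 rose and 13 fell in PSC4 (16.5% each way, where 24.3% of all genes rose and 22.0% fell), with a median log2 fold change of -0.08. Their number past the threshold was 17 without Control-SU replicate 1, 16 without Control-SU replicate 3, 9 without Gem-SU replicate 2 and 13 without Gem-SU replicate 3. The share of all genes called in these fits is not given. In KPC4 0 passed in edgeR's quasi-likelihood test (2 with the replicate block), with a median of -0.16.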
